A study of Mus musculus with 2 samples.

Results

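The type I and type II keratin gene clusters were examined for peaks of methylated DNA in mouse fat. Their members are the MeDIP-seq peaks that overlap, by at least 1 bp, chromosome 11 from 99070000 to 100200000 (type I keratins and keratin-associated proteins) or chromosome 15 from 101180000 to 101870000 (type II keratins), in mm9 coordinates. The rule found 196 peaks in the STD list and 210 in the HFD list, 406 of the 342199 peaks on nuclear chromosomes. The type I cluster held 124 STD and 131 HFD peaks in 1.13 Mb, and the type II cluster held 72 and 79 in 0.690 Mb. No peak crossed an edge of a cluster. The members were chosen by position only, and their number, width and overlap between diets were not used by the rule.

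The tissue was epididymal white adipose tissue, the fat pad next to the testis, of male C57BL/6J mice, an inbred strain that becomes obese on fat-rich food. STD mice ate regular chow and HFD mice a high-fat diet with 60% of its energy from fat, in each case for 5 months from the age of 4 weeks. In MeDIP-seq an antibody against 5-methylcytosine captures fragments of methylated DNA, and a peak is a stretch where captured reads pile up. There is 1 library per diet, from a number of mice that is not stated, and sequencing depth is unknown. There is therefore no replicate check and no p-value, and every interval below is an exact 95% interval that covers counting error only and treats peaks as independent. The lists hold no expression values, so the labelled tissue could not be checked against its marker genes.

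Keratins are the intermediate filament proteins of epithelia. A filament forms from pairs of a type I (acidic) and a type II (basic) keratin, and the genes of each type lie side by side in a cluster of their own. Krt5 and Krt14 form the pair of basal skin cells, Krt1 and Krt10 that of the layers above, and Krt8 and Krt18 that of simple epithelia. Krt18 is a type I gene that lies at the end of the type II cluster. Hair keratins such as Krt31, Krt35, Krt81 and Krt86 are made in the hair follicle, where keratin-associated proteins (Krtap genes) bind and cross-link them. Adipocytes are not epithelial cells, whereas the mesothelium that covers visceral fat makes simple epithelial keratins. MeDIP enriches DNA with methylated CG dinucleotides, so a stretch with few CG offers little to capture whatever its methylation.

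In the RefSeq gene table, which follows the later build GRCm38.p6, 77 keratin and Krtap genes are named on chromosomes 11 and 15. On chromosome 11 there are 27 type I keratin and 23 Krtap genes. Their order begins with Krt222, Krt24 and Krt25 to Krt28, and goes on through Krt10, Krt12, Krt20, Krt23, Krt39 and Krt40. All 23 Krtap genes follow as a block, from Krtap3-3 to Krtap17-1, with gene models of other names among them. After them come the hair keratins Krt33a to Krt36, and then Krt13, Krt15, Krt19, Krt9, Krt14, Krt16, Krt17 and Krt42. On chromosome 15 there are 26 type II keratin genes and Krt18. The order there runs from Krt80 and Krt7 through hair keratins such as Krt81, Krt86 and Krt83 and then Krt75, Krt6b, Krt6a, Krt5, Krt71, Krt2 and Krt1 to Krt4, Krt8 and Krt18. Because the peaks are on mm9, none was placed at a gene, and the order serves only to show which genes neighbour each other.

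Promoters of the Krtap genes were poor in CG. The number of CG, which reads the same on both strands, was counted in the 250 bases before the start of transcription. The RefSeq promoter table holds 21 of the 23 genes named Krtap (91.3%). Gene models of other names within the Krtap block were not counted, whatever they encode. The median of the Krtap promoters was 1 CG (range 0 to 4), against 6 over all 32851 promoters (quartiles 2 and 16). No CG at all stood in 8 Krtap promoters (38.1%), against 7.87% of all promoters, of which 92.1% hold at least 1. For the keratins a comparison with all promoters is void, because the table holds under 80% of their genes (20 of 27 type I and 15 of 26 type II). The type I promoters it holds had 1 to 8 CG and the type II promoters 1 to 16. Among these, Krt5 and Krt10 had 2 each, Krt8 had 3 and Krt14 had 5. Krt7, a keratin of ducts and other simple epithelia, had 16, and Krt18 on chromosome 15 had 12.

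Sequences from GRCm38.p6 are shown for the fewest and most CG among the type I keratins, the fewest among the Krtap genes and the most among the type II keratins, taken as the first in gene order where several tie. They are written 5′ to 3′ on the strand of the gene and end at the base before the start, and capitals mark each CG.
Krt33b: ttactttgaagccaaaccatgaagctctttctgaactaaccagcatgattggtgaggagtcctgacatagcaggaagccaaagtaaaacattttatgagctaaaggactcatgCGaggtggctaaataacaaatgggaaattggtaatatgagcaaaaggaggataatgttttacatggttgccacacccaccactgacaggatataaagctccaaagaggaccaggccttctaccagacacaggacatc
Krt39: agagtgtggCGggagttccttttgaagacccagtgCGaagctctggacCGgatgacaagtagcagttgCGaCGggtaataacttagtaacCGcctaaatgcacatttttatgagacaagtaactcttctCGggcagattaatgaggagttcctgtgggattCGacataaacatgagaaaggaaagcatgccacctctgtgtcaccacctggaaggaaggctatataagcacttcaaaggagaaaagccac
Krtap3-2: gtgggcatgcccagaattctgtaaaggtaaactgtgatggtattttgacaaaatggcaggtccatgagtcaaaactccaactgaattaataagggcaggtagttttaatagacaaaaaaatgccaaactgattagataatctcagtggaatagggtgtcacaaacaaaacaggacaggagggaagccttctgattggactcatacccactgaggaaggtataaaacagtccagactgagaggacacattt
Krt7: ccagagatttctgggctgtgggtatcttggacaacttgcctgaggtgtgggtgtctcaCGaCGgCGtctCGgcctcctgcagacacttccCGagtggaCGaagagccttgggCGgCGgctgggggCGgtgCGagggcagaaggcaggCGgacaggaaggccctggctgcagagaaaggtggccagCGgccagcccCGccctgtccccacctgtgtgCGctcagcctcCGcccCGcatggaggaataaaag
Krt33b, a hair keratin, had 1 CG and Krtap3-2 had none, whereas Krt39 had 8 and Krt7 had 16. These counts describe the reference sequence and not its methylation.

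**Figure D1:**
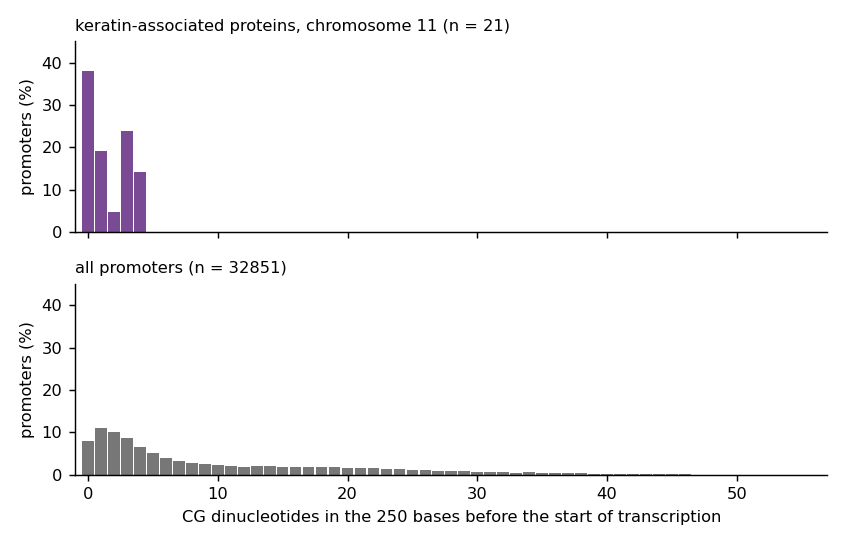
Distribution of promoters by the number of CG dinucleotides in the 250 bases before the start of transcription (horizontal axis), as a percentage of each group (vertical axis, bars), for Krtap promoters (top) and all promoters of the RefSeq table (bottom). Krtap promoters lie between 0 and 4 CG, and all promoters reach up to 56.

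The question of density was whether these clusters, whose genes serve epithelia, carry fewer or more peaks than their surroundings. Both clusters were richer in peaks than the genome and the rest of their chromosome, and the ratios to their pooled flanks lay between 0.7995 and 0.864. In the type I cluster the density was 109.7 STD peaks per Mb (interval 91.3 to 131) and 116 HFD peaks per Mb (96.9 to 138). In the type II cluster it was 104 (81.6 to 131) and 114 (90.6 to 143). Over all nuclear chromosomes, from the first to the last peak, it was 64.5 STD and 68.1 HFD peaks per Mb. The type I cluster thus had 1.33 times the density of the rest of chromosome 11 in both lists (1.10 to 1.59 with STD, 1.11 to 1.58 with HFD). The type II cluster had 1.44 times (1.12 to 1.81) and 1.499 times (1.19 to 1.87) the density of the rest of chromosome 15. Of 2326 stretches of 1.13 Mb tiled over the genome, 80.5% had fewer STD peaks and 80.6% fewer HFD peaks than the type I cluster, and the median stretch had 63 and 67. Of 3818 stretches of 0.690 Mb, 76.7% and 79.0% had fewer than the type II cluster, and the median stretch had 37 and 40. Both sets of stretches begin at the start of each chromosome. They include the part before its first peak, which the chromosome densities above leave out. Peak density is not adjusted for the number of CG or for how well reads map.

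Against the flanks of 1 Mb on each side, the type I cluster had the lower density in both lists. The proximal flank, on the side of the centromere, held 124 STD and 134 HFD peaks, and the distal flank 135 and 156. The ratio of cluster to flank density was 0.847 with STD (0.678 to 1.05) and 0.7995 with HFD (0.645 to 0.986), and only the HFD interval lay below 1. Which interval did so depended on the setting. The STD interval also lay below 1 with flanks of 500 kb (0.587 to 0.961), with the cluster shortened by 100 kb at each end (0.603 to 0.982) and for peaks of at least 300 bp (0.556 to 0.976). The HFD interval included 1 against the proximal flank alone (0.675 to 1.11) and after merging peaks across 500 bp (0.657 to 1.02). The difference between the lists was not tested. The type II cluster lay between its flanks, and its ratio to both pooled was 0.806 (0.612 to 1.05) and 0.864 (0.663 to 1.11). Its proximal flank held 171 STD and 180 HFD peaks, and its distal flank 88 and 85. The cluster had 0.610 times (0.457 to 0.808) and 0.636 times (0.482 to 0.833) the density of the proximal flank. Relative to the distal flank it was 1.19 (0.856 to 1.64) and 1.35 (0.979 to 1.85), and both of these intervals include 1.

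**Figure D2:**
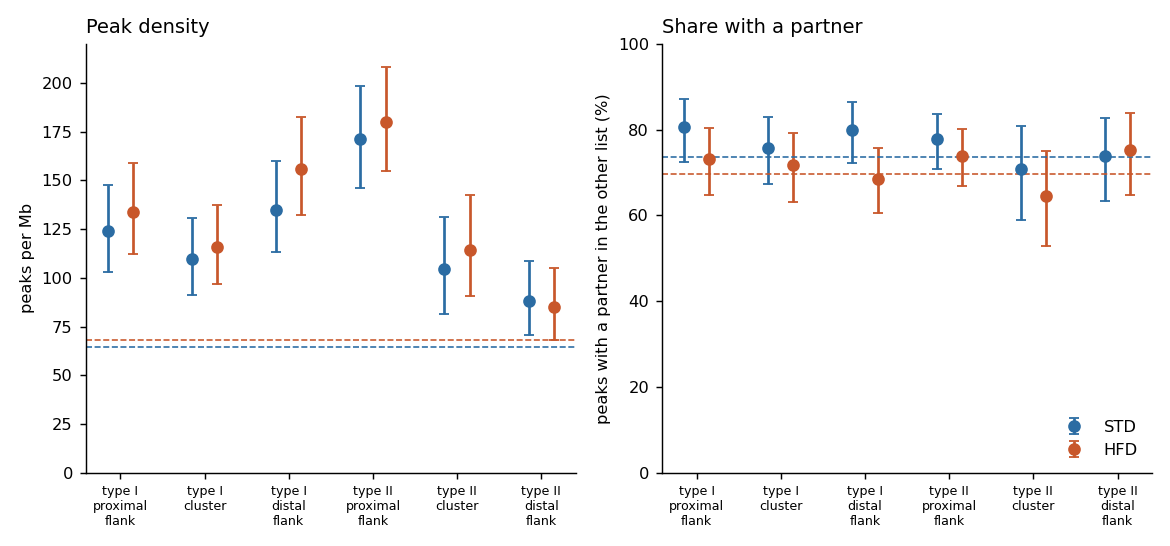
Left, peaks per Mb in each keratin cluster and its proximal and distal flank of 1 Mb. Right, the percentage of peaks that overlap a peak of the other list. Points are single libraries (STD blue, HFD orange), bars are exact 95% intervals for counting error, and dashed lines are the values over all nuclear chromosomes. All density points lie above the dashed lines, and the intervals of the partner shares of clusters and flanks overlap.

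Peaks were unevenly spread inside the type I cluster. Its first 450 kb held 60 STD and 68 HFD peaks, or 133 and 151 per Mb, and its last 380 kb held 55 and 56, or 145 and 147 per Mb. Between them, a stretch of 300 kb from 99520000 to 99819999 held 9 STD and 7 HFD peaks, or 30 and 23.3 per Mb. It consists of 6 consecutive windows of 50 kb with at most 5 peaks each over both lists, and was picked out after the values had been seen. Both libraries were low there, with 1 to 3 STD peaks and 0 to 2 HFD peaks per window. The 3 emptiest windows began at 99570000 (1 STD peak, no HFD peak), 99620000 and 99720000 (1 of each). The 3 fullest were those from 99220000 (12 STD, 10 HFD), from 99070000 (10 and 10) and from 99970000 (9 and 10).

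Without the sparse stretch the ratio of the type I cluster to its flanks was 1.07 with STD (0.851 to 1.34) and 1.03 with HFD (0.828 to 1.28). These values had to rise, since the emptiest windows were taken out of the cluster and none out of the flanks, and they support no conclusion. The longest stretch without a peak of either list lay within the sparse stretch, from 99578593 to 99652387 (73.8 kb). Next were 46.2 kb from 99532169 and 45.3 kb from 99652740. On chromosome 11, 0.935% of the 12940 intervals between loci were at least 73.8 kb long. The gap was picked as the longest of 160 such intervals in the cluster, so this share does not show that it is unusual. In each flank the longest was 30.9 kb (proximal) and 36.7 kb (distal). Sparse stretches as such are common: 17.4% of 396 tiles of 300 kb on chromosome 11 had 16 peaks or fewer over both lists, and the median tile had 52.5. In gene order the Krtap block also stands in the interior of the cluster, but its limits on mm9 were not read here, and whether it is the sparse stretch was not tested.

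Of the 16 peaks in the sparse stretch, 8 had no partner in the other list. Over all peaks in the stretch, the median width was 265 bp with STD, against 335 bp in the remainder of the cluster. With HFD it was 304 bp, against 306 bp. The widest measured 357 bp and 395 bp. A partner, meaning a peak of the other list that overlaps by 1 bp or more, was found for 4 of the 9 STD peaks (44.4%, interval 13.7 to 78.8) and for 4 of 7 with HFD (57.1%, 18.4 to 90.1). The intervals include the shares in the remainder of the cluster, 78.3% and 72.6%. Over all nuclear chromosomes, the background without a partner was 26.5% (STD) and 30.3% (HFD). The STD peak from 99578326 to 99578592 (267 bp) had no HFD peak within 53.8 kb, the greatest such distance in either cluster.

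The type II cluster had a sparse part of 100 kb. No peak of either list lay from 101418585 to 101504252, a length of 85.7 kb, and 1.04% of the 9540 intervals on chromosome 15 were at least as long. This gap, too, was picked as the longest, of 99 intervals in the cluster, so the share does not show that it is unusual. The window from 101430000 was empty, and the next, from 101480000, held 3 STD peaks and 1 HFD peak. At the end of the gap stood a broad peak found with both diets, of 608 bp with STD (101504253 to 101504860) and 666 bp with HFD (101504271 to 101504936). Over both lists the 100 kb held 4 peaks, and 22.6% of 1003 tiles of 100 kb on chromosome 15 had as few. The other 11 full windows held 10 to 15 peaks over both lists. Without the 2 sparse windows the cluster had 0.903 times (0.682 to 1.18) the flank density with STD and 0.998 times (0.765 to 1.29) with HFD. As in the type I cluster, these ratios had to rise and support no conclusion. The windows were taken out for their low counts, and the flanks kept theirs, among them 7 distal windows with at most 5 peaks. In its distal flank a gap of 85.6 kb was found, so a gap of this size was not limited to the cluster.

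**Figure D3:**
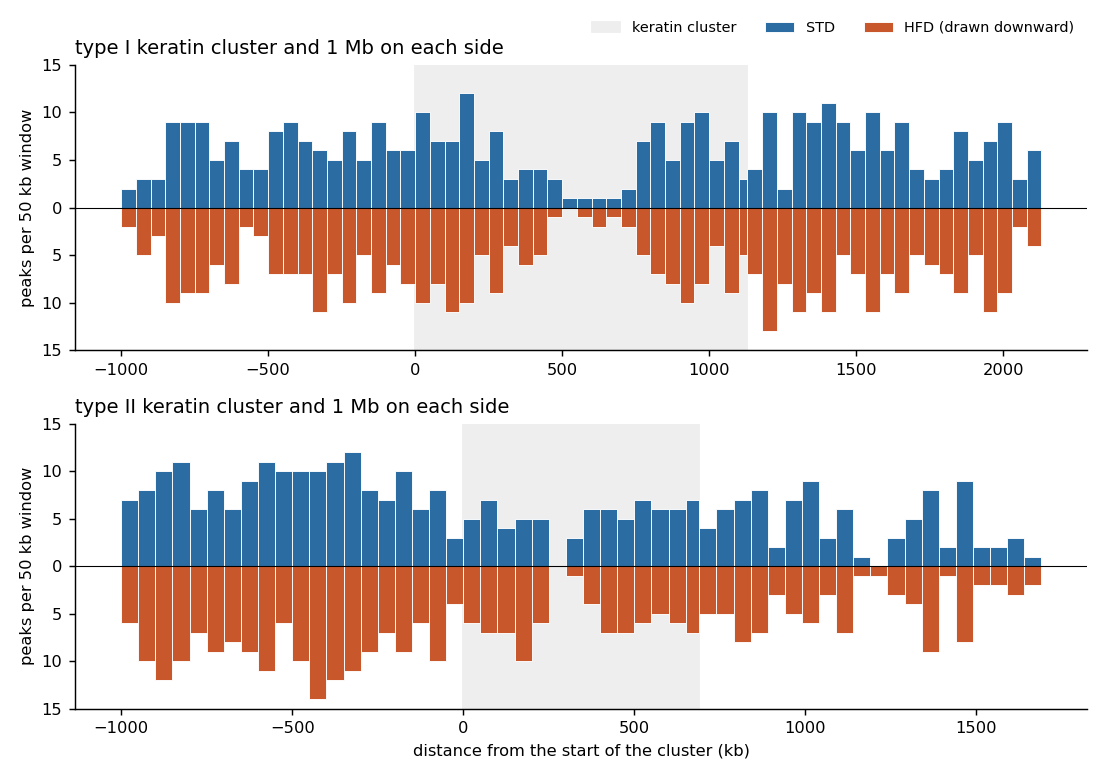
Number of peaks in windows of 50 kb (the last window of each cluster is shorter) along each keratin cluster (grey) and its flanks, by distance from the start of the cluster in kb. STD counts are drawn upward and HFD counts downward. The type I cluster shows low counts from 450 to 750 kb in both libraries, and the type II cluster an empty window at 250 to 300 kb.

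Median peak widths in the clusters were close to those of the flanks. Broad peaks made up a smaller share than in the flanks, and this share was nearer to that of all nuclear chromosomes. The median was 334.5 bp with STD and 320 bp with HFD, against 342 and 327 bp in the flanks and 332 and 321 bp over all nuclear chromosomes. The narrowest peaks of the lists differ (263 bp with STD, 255 bp with HFD), so widths were also taken above that minimum, where the cluster medians were 71.5 and 65 bp. Type II peaks had medians of 349.5 and 344 bp, and type I peaks 332 and 306 bp. In the type I cluster, 11.3% (STD) and 8.40% (HFD) of the peaks had exactly the minimum width, against 5.41% and 5.86% in its flanks and 6.89% and 7.12% over all nuclear chromosomes. These cluster shares rest on 14 STD and 11 HFD peaks. By flank, the shares were 4.84% and 2.99% in the proximal and 5.93% and 8.33% in the distal flank, so the HFD share was close to that of the distal flank. Peaks over 200 bp above the minimum made up 13.3% (STD) and 11.4% (HFD) of the members, against 20.3% and 17.7% in the flanks and 14.6% and 13.8% over all nuclear chromosomes. The shares of the members rest on 26 STD and 24 HFD peaks. Bases under peaks made up 3.90% and 3.95% of the type I cluster and 4.04% and 4.21% of the type II cluster. In the 4 flanks as a whole they made up 4.94% and 5.13%.

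The 3 widest peaks of each cluster and list were all found with both diets. In the type II cluster the widest STD peak, from 101647785 to 101648717, measured 933 bp, and its HFD partner 915 bp. In the type I cluster the peak from 99235592 to 99236406 measured 815 bp with STD and 786 bp with HFD, and that from 100125306 to 100125967 measured 662 and 725 bp. The widest STD peak there, from 99195932 to 99196772 (841 bp), had an HFD partner of only 443 bp. At the very start of the type II cluster, an STD peak of 846 bp (101181921 to 101182766) had a partner of 617 bp. These last 2 were the largest losses of width from STD to HFD among partners in either cluster. The largest gain was at 99845345 in the type I cluster, from 322 to 535 bp.

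Diets were compared by the share of peaks with a partner. Most members had one, at a rate near that of the genome. No partner was found for 51 of 196 STD members (26.0%) and 65 of 210 HFD members (31.0%). The background over all nuclear chromosomes was 26.5% and 30.3%, so the clusters lay close to it. Expressed the other way, 74.0% of the STD members (67.2 to 79.97) and 69.0% of the HFD members (62.3 to 75.2) had a partner, and 78.4% (74.6 to 81.8) and 72.4% (68.5 to 76.1) of the flank peaks did. In the type I cluster the shares were 75.8% (67.3 to 83.0) and 71.8% (63.2 to 79.3). In the type II cluster they were 70.8% (58.9 to 81.0) and 64.6% (52.99 to 75.0), and both intervals include the values of the flanks and of all nuclear chromosomes. Taken as 261 separate loci, 55.6% were covered with both diets, 51 with STD only and 65 with HFD only. Over all nuclear chromosomes the share covered with both was also 55.6%, and in the 4 flanks it was 60.2%. By cluster the share was 58.4% of 161 type I loci and 51% of 100 type II loci. No interval was computed for these shares, and the difference between the clusters was not tested.

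The balance of the diets in the clusters was close to that of the whole lists. The ratio of HFD to STD peaks was 1.07 (0.878 to 1.31) in the clusters, 1.07 (0.949 to 1.21) in the flanks and 1.06 over all nuclear chromosomes. It was 1.06 in the type I and 1.097 in the type II cluster. Among members found with 1 diet only, HFD peaks made up 56.0% (46.5 to 65.2), against 54.7% over all nuclear chromosomes. By windows of 50 kb, the type I cluster had more HFD peaks in 10, more STD peaks in 7 and equal numbers in 5 of its 22 full windows, with a difference of at most 4. In the type II cluster the numbers were 6, 4 and 3 of 13 windows. The largest difference there was in the window from 101330000, with 5 STD and 10 HFD peaks.

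Partners in the clusters matched closely in position. There were 145 pairs with exactly 1 peak on each side, 94 in the type I and 51 in the type II cluster, and these include every member that had a partner. Midpoints lay a median of 24 bp apart and at most 191.5 bp. The median difference in width, HFD minus STD, was -5 bp (quartiles -47 and 37 bp), while the minimum widths of the lists differ by -8 bp. In 84 pairs the widths were within 50 bp of each other, and in 3 they differed by over 200 bp. The HFD peak was wider in 68 pairs and the STD peak in 76.

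**Figure D4:**
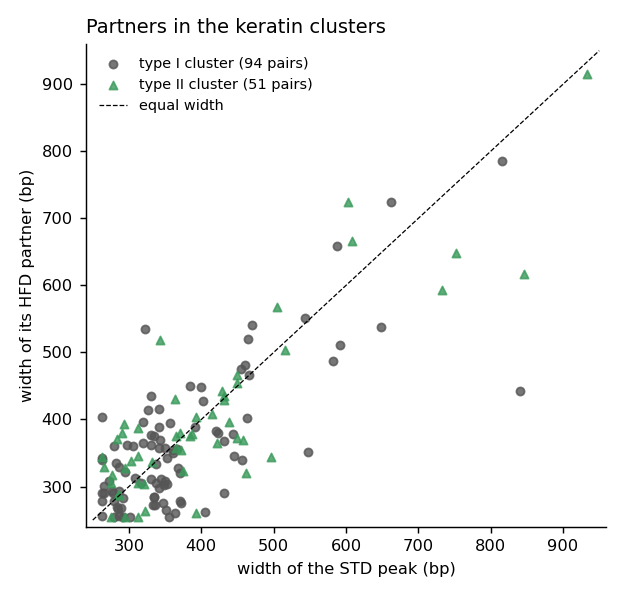
Width of each STD peak (horizontal, bp) against the width of its HFD partner (vertical, bp) for the 145 pairs in the keratin clusters (94 type I, circles; 51 type II, triangles). The dashed line marks equal width, and 84 pairs lie within 50 bp of it.

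The share with a partner rose with width among narrow members, as in the whole lists, but a few broad STD members had none. Up to 50 bp above the minimum width, 54.9% of 82 STD members and 46.8% of 94 HFD members had a partner, against 55.0% and 50.5% over all nuclear chromosomes. From 51 to 200 bp above it the shares were 89.8% and 84.8%, against 83.6% and 80.9%. Over 200 bp above it, 23 of 24 HFD members had a partner (95.8%, 78.9 to 99.9), but only 21 of 26 STD members (80.8%, 60.6 to 93.4), against 93.7% of such STD peaks over all nuclear chromosomes. Of 12 intervals compared in this way for clusters and flanks, 2 left out the value of the whole lists, and that of the broad STD members was the only one in the clusters.

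The 5 broad STD members without a partner lay apart from each other. In the type II cluster they were the peaks from 101575012 to 101575669 (658 bp), with the nearest HFD peak 7.93 kb away, and from 101539883 to 101540400 (518 bp), with one at 2.56 kb. In the type I cluster they were those from 99148582 to 99149132 (551 bp), from 99402174 to 99402678 (505 bp) and from 99856152 to 99856655 (504 bp), with HFD peaks at 2.63, 0.502 and 5.52 kb. The broadest HFD members without a partner were narrower. They measured 456 bp (101314217 to 101314672) and 411 bp (101271760 to 101272170) in the type II cluster and 412 bp (99260453 to 99260864) in the type I cluster. The last of these had an STD peak at 0.487 kb. Over all members without a partner, the nearest peak of the other list lay at a median of 3.47 kb (STD) and 3.72 kb (HFD) in the type I cluster and of 2.36 and 2.94 kb in the type II cluster. It lay within 500 bp for 7 of the 51 STD and 4 of the 65 HFD members. With 1 library per diet, diet and library cannot be told apart at any of these sites.

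**Figure D5:**
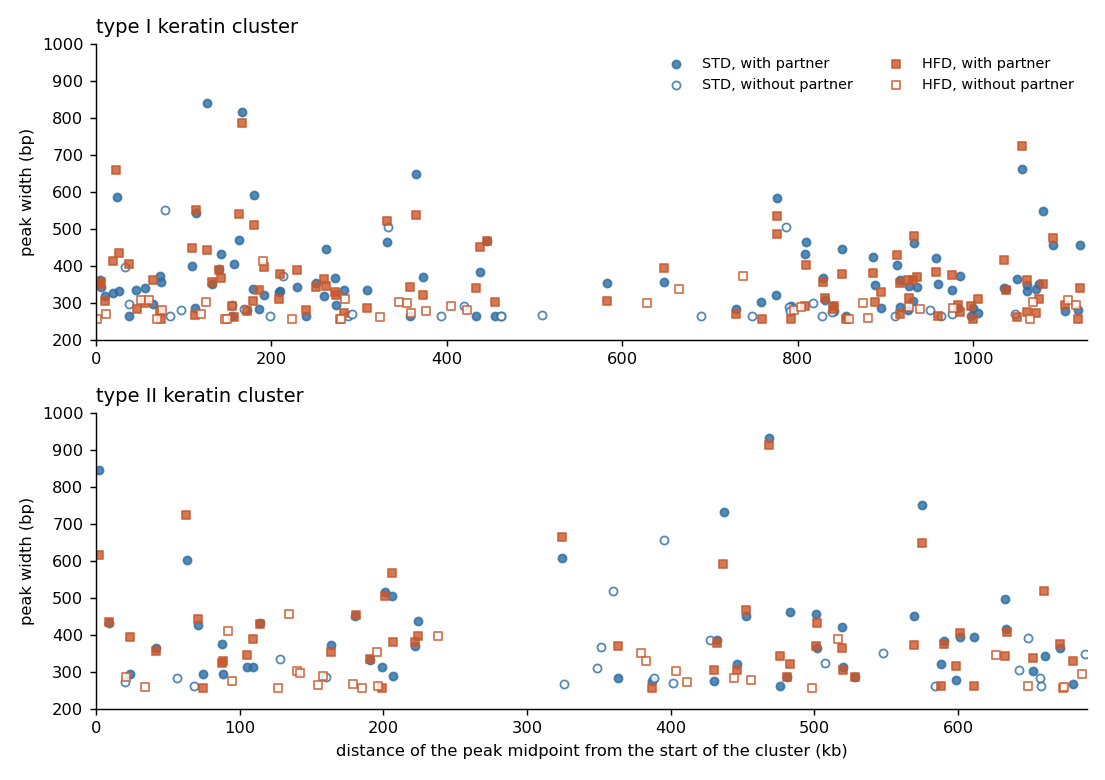
Width of every member peak (vertical, bp) by the distance of its midpoint from the start of its cluster (horizontal, kb). STD peaks are blue circles and HFD peaks orange squares, filled with a partner in the other list and open without. The widest peaks are filled, and the open blue circles above 500 bp are the 5 broad STD peaks without a partner.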

How the data were processed

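Per the submitters' processing notes, the authors used BWA and the build mm9, with a peak caller, threshold and read filters not given in the sources used here. Deposited lists have 4 columns (chromosome, start, end, name) and no score, and positions are printed counting from 1. The 6 mitochondrial peaks of each list were left out. Libraries were grouped by the diet in the labels.

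Python 3.11.15 (numpy 2.4.6, pandas 2.3.3, scipy 1.17.1, matplotlib 3.10.9) was used. Numbers with a partner were identical to those of bedtools 2.31.1, and functions were tested on simulated lists. Intervals are Clopper-Pearson for shares, from the binomial share of 2 counts for ratios, and exact Poisson for densities. Members and lists were chosen with earlier results of these data known. Named peaks come from the 3 widest, and the 3 widest without a partner, per cluster and list. Named windows are the 3 fullest and emptiest, and named gaps come from the 3 longest. The 5 broad STD peaks without a partner, the most unequal pairs, the sparse stretches and the individual promoters named were chosen after their values were seen. Gene names, order and promoter sequences come from RefSeq tables on GRCm38.p6, and no coordinates were converted.

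Alternatives were other flanks (500 kb, 2 Mb, either side alone, the rest of the chromosome), clusters shortened by 100 kb at each end, covered bases, peaks of at least 300 bp or over 50 bp above the minimum width, merging across 500 bp, assignment by midpoint, other overlap rules and equal numbers of the widest peaks.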

Additional observations from a re-analysis of the deposited data

How the results depend on the processing

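Of 74 recomputed values for 10 results, 62 stayed within the counting interval of the value reported and 10 moved outside it. The other 2 were counted as reversed, which was possible only where the reported interval itself excluded no difference. Both were type I ratios with HFD, against the rest of the chromosome (1.33) and without the sparse stretch (1.03, interval 0.828 to 1.28). The other ratios to the rest of the chromosome also lay above 1 but count as moved. The reference set the direction of the density ratio. Against the rest of the chromosome it was 1.33 for the type I cluster with either diet and 1.44 (STD) and 1.499 (HFD) for the type II cluster. For the type II cluster, the proximal flank alone gave 0.610 and 0.636 and the distal flank alone 1.19 and 1.35. Flanks of 2 Mb gave 0.980 (0.752 to 1.26) with STD and 1.05 (0.814 to 1.33) with HFD. With that cluster shortened by 100 kb at each end, the STD interval lay below 1 (0.725, 0.518 to 0.995) and the HFD interval did not (0.801, 0.583 to 1.08). Leaving out the sparse stretch, an alternative added after seeing the data, gave 1.07 (STD) and 1.03 (HFD) for the type I cluster. These values had to rise, since the emptiest windows were taken out of the cluster only, and they support no conclusion. Among peaks over 50 bp above the minimum width, the share with a partner was 87.7% (STD) and 87.1% (HFD). All alternatives for the HFD over STD ratio (1.02 to 1.06), for the share of HFD among peaks without a partner (55.4% to 58.1%) and for median widths stayed within counting error. No paired analysis was possible because there is 1 library per diet, and for the same reason leaving out a replicate was not run. As depth is unknown, a peak that is absent from a list may only have missed the caller's threshold.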

Other observations

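The flanks of the type II cluster differed from each other more than those of the type I cluster. Per window of 50 kb over both lists, the proximal flank of the type II cluster had a median of 18 peaks (7 to 24) and the distal flank 7.5 (1 to 17). At most 5 peaks lay in 7 of the 20 distal windows and in none of the 20 proximal ones. The flanks of the type I cluster had medians of 14 and 13.5. Stretches of at least 20 kb without a peak made up 37.6% of the distal and 2.06% of the proximal flank of the type II cluster. Such stretches made up 18.9% of that cluster and 22.9% of the type I cluster, whose flanks had 14.5% (proximal) and 11.4% (distal). Over the spans of chromosomes 11 and 15 they made up 41.0% and 50.0%.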
